A study of Mus musculus with 15 samples.

Results

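The genes described here encode the proteins of the cytosolic ribosome. They were the rows of a gene expression table of mouse bone marrow cells whose symbol began with Rpl or Rps followed by a digit, X, or p and a digit, without the Rps6k kinases and without symbols that contain -ps. The rule took 86 of the 17030 genes in the table, 53 with an Rpl symbol (large subunit) and 33 with an Rps symbol (small subunit). The rule reads symbols, so it also took Rps19bp1, a protein that binds Rps19 in the nucleolus, and Rpl7l1, a relative of Rpl7 that acts in ribosome assembly. It left out ribosomal proteins with other symbols, of which Rpsa, Fau and Rack1 are given separately below. Of the 86 members, 85 passed the filter on low values (at least 1 FPKM in at least 3 of the 15 libraries), and Rps27rt did not.

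Messenger RNA was sequenced in 15 libraries, 3 in each of 5 groups. CAR macrophages were labelled with the genotype CAR expression and with CAR treatment. Control-CAR macrophages carried the matching control labels. Hoxb8 macrophages and BMDM (bone marrow derived macrophages) were wild type and untreated. Progenitor cells, also wild type and untreated, were the undifferentiated group. All groups were labelled as bone marrow primary cells, with no age, sex or clone given, and the labels do not say what drives the receptor, how Hoxb8 was delivered or which cells the treatment met. CAR stands for chimeric antigen receptor, an engineered receptor that directs a cell to a chosen antigen, and Hoxb8 is a homeobox factor widely used to hold myeloid progenitors in a dividing state. The labels do not say that replicates came from separate cultures or animals, so p-values measure the spread between these libraries, which may be technical.

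The total estimated count lay between 16962839 and 19221681 per library. Ribosomal protein mRNAs are abundant, and 75 to 77 of the 85 tested members had a group mean of at least 100 FPKM in each group. The labelled cell types were checked against marker genes. The summed FPKM of 8 macrophage markers was 2445 to 2509 in CAR, 7176 to 7780 in control-CAR, 7449 to 8164 in Hoxb8 macrophage and 9644 to 10582 in BMDM libraries, and 187 to 205 in progenitor libraries. With TMM scaling (explained below) 7 of those 8 markers were called lower in CAR than in control-CAR libraries (36.8% of all genes). With library totals 6 were (23.5% of all genes). Lyz2 fell most, with 612 FPKM in CAR and 5027 FPKM in control-CAR libraries. Adgre1 had 811 and 1131 FPKM, and Cd68 had 738 ± 25.7 and 758 ± 130 FPKM (SD, n = 3). The summed FPKM of 7 mast cell and basophil markers was 2970 to 3186 in CAR, against 49.1 to 69.2 in control-CAR. That mast cell and basophil sum was 1347 to 1457 in progenitor, 154 to 186 in BMDM and 35.7 to 55.6 in Hoxb8 macrophage libraries. In progenitor libraries most of it was Cpa3 (1284 ± 56.6 FPKM, SD, n = 3), and Cma1, Fcer1a and Tpsb2 were listed at 0. Cpa3 had 2221 ± 99.0 FPKM in CAR libraries, where Fcer1a had 97.3 FPKM and Tpsb2 329 FPKM. In bulk RNA, fewer cells of a type and less RNA per cell cannot be told apart.

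A ribosome has a large subunit, which forms peptide bonds, and a small subunit, which reads the mRNA. Each protein is needed in about one copy per ribosome, and cells that grow and divide spend much of their transcription on ribosomes. The mRNAs of vertebrate ribosomal proteins begin with a C followed by a run of pyrimidines, the 5′ terminal oligopyrimidine or TOP element, through which the kinase complex mTORC1 controls their translation. Several members have paralogs made in particular tissues. Rpl39l is known from the testis and from some tumours, and Rpl3l from heart and skeletal muscle. Rpl22l1 and Rps27l are close relatives of Rpl22 and Rps27.

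The start regions of some members hold motifs that were more frequent in member promoters than in all promoters, though most member promoters lacked each of them. RefSeq promoter sequences (GRCm38.p6, 250 bases before to 50 bases after the annotated start) were at hand for 66 of the 86 members, as 78 promoters. The sequences below run 5′ to 3′ on the gene's strand, from 30 bases before the start, over 45 bases. Capitals mark CTTT between 5 bases before and 10 bases after the start (gene strand) and CCGGAAG, a motif of the ETS factors, on either strand. Rps6, Rpl38, Rps27 and Rps10 are shown for CTTT at the start, and the others because they changed most in CAR macrophages or are a paralog pair. CTTT is a narrow stand-in for the pyrimidine run. The Rps2 and Rpl39 windows hold other pyrimidine runs after the start, which are not marked. Rps6 and Rps10 were also among the members with the largest changes against progenitor cells.
Rps6, chr4:86857353-86857397, minus strand: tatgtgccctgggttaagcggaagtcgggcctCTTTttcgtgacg
Rpl38, chr11:114668550-114668594, plus strand: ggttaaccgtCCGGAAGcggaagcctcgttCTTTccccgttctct
Rps27, chr3:90213634-90213678, minus strand: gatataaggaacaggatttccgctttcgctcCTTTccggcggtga
Rps10, chr17:27635230-27635274, minus strand: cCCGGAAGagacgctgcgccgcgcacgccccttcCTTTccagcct
Rps2, chr17:24720033-24720077, plus strand: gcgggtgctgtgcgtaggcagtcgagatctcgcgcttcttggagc
Rpl24, chr16:55966245-55966289, plus strand: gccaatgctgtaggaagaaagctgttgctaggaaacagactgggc
Rpl39, chrX:37085208-37085252, minus strand: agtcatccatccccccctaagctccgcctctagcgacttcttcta
Rpl39l, chr16:10170198-10170242, plus strand: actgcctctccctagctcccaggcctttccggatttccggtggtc

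CTTT at the start stood in 15 of the 78 member promoters (19.2%), against 5.61% of all 32851 promoters in the table. CCGGAAG, searched on both strands of the whole 300-base window, stood in 33.3% of member promoters and in 8.86% of all. AAGATGGCG, a motif of the factor YY1, also searched on both strands of the window, stood in 7.69% of member promoters and in 1.4% of all. These are matches of letters in annotated windows and were not tested as binding sites. Of 14 tested members with CTTT at the start, 4 were higher and 4 lower in CAR than in control-CAR macrophages relative to the whole family, against 16 and 17 of the 49 tested members with a promoter but no CTTT there, and 43.6% and 29.2% of all genes. The 14 members had changes between -0.38 and 0.53 on the log2 scale. Members without CTTT can hold another pyrimidine run, so this split does not separate members with and without a TOP element.

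Ribosomal protein mRNAs took up the largest share of the progenitor libraries. The 86 members held 2.79%, 2.79% and 2.81% of all estimated counts in the CAR libraries, 2.21%, 2.37% and 2.26% in control-CAR, 2.47%, 2.70% and 2.44% in Hoxb8 macrophage, 2.62%, 2.85% and 3.29% in BMDM, and 5.14%, 5.44% and 5.32% in progenitor libraries. The progenitor libraries lay above all 12 macrophage libraries, and the CAR libraries above all 3 control-CAR libraries. The mean share was 0.479 times the progenitor share in Hoxb8 macrophages and 0.550 times in BMDM, and CAR macrophages had 1.23 times the control-CAR share. In the exact permutation test (two-sided) these 3 differences each gave p = 0.1, the smallest value 3 against 3 libraries allow. The shares of counts overlapped between Hoxb8 macrophage and BMDM libraries.

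**Figure D1:**
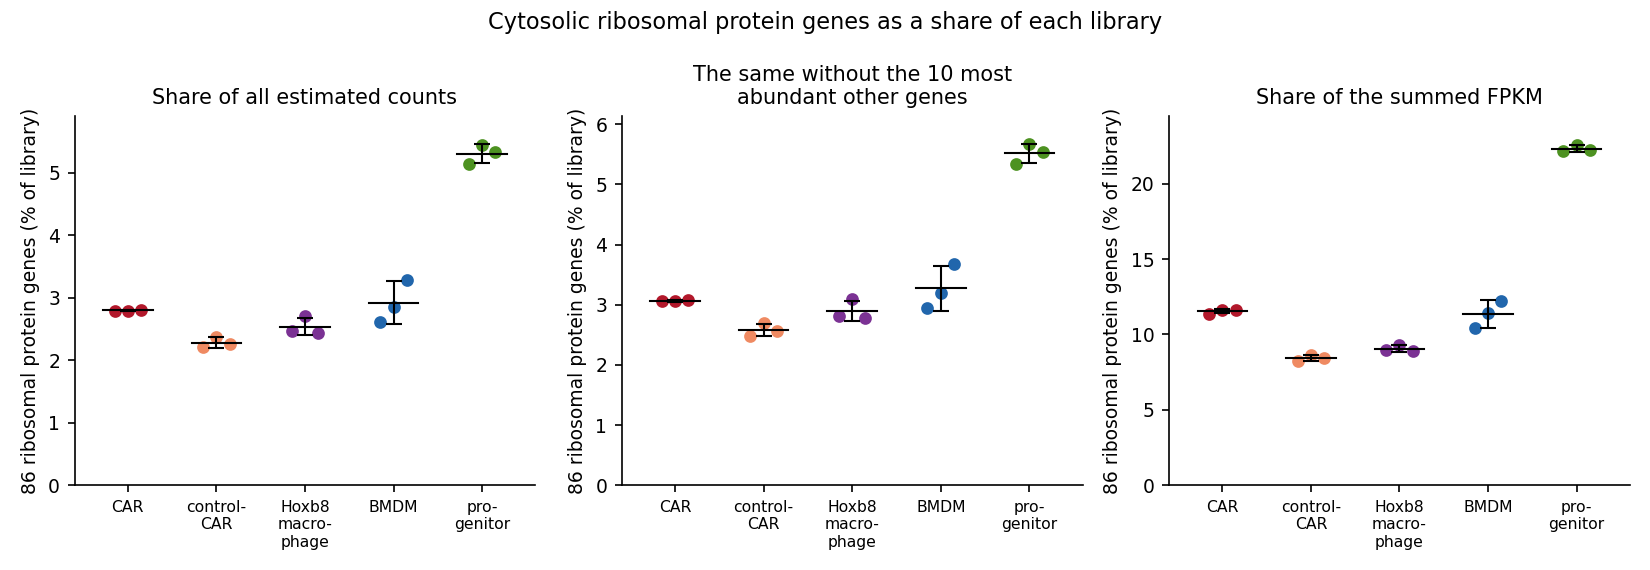
Share of each library held by the 86 ribosomal protein genes, in percent, for the 3 libraries of each group (points), with the group mean and SD (black lines). From left to right the share is of all estimated counts, of the counts left without the 10 most abundant other genes, and of the summed FPKM; the progenitor libraries are highest in each, and the CAR libraries lie above control-CAR in each.

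Shares of summed FPKM, which weigh short transcripts more, gave the same order of CAR against control-CAR and of each macrophage group against progenitor cells. The members held 11.5% ± 0.136 of the summed FPKM in CAR, 8.45% ± 0.211 in control-CAR, 9.06% ± 0.226 in Hoxb8 macrophage, 11.3% ± 0.915 in BMDM and 22.3% ± 0.233 in progenitor libraries (SD, n = 3). In this unit the Hoxb8 macrophage libraries lay below all BMDM libraries (exact permutation test, two-sided, p = 0.1). A share depends on the rest of the library. The 10 most abundant other genes held 8.79% ± 0.0295 of counts in CAR, 11.7% ± 0.371 in control-CAR, 12.4% ± 0.180 in Hoxb8 macrophage, 10.9% ± 0.198 in BMDM and 3.84% ± 0.0872 in progenitor libraries (SD, n = 3). Without those genes the member share was 3.07% in CAR and 2.58% in control-CAR libraries, and 5.51% in progenitor libraries. The small subunit's part of the member counts stayed between 36.5% and 37.6% in the 5 group means.

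Among themselves the members covered a wide range of levels per length. Over the 5 group means, Rpl3l was the lowest tested member at 0.537 FPKM, and Rpl41, a very short protein of the large subunit, reached 4171 FPKM in progenitor cells, the highest group mean. The low members were mostly paralogs, copies and associated proteins, Rpl3l, Rpl37rt, Rpl39l, Rpl32l, Rps19bp1 and Rpl7l1. Rps6, a core protein of the small subunit and a substrate of the S6 kinases, stood among them at 12.1 FPKM. Reads of ribosomal protein genes can be shared with near-identical copies elsewhere in the genome, and how they were divided is not given in the sources used here, so the level of Rps6 is uncertain. Rps15a is also uncertain, since its FPKM and counts imply a length of 4826 bases, against a median coding transcript of 638.5 bases. Median member levels were 803 FPKM in CAR, 734 in control-CAR, 808 in Hoxb8 macrophages, 865 in BMDM and 1670 in progenitor cells.

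Whether the members as a group were higher or lower in CAR macrophages depended on the scaling. Changes were computed from estimated counts with edgeR's quasi-likelihood test on all 11793 tested genes, and a gene was called at a Benjamini-Hochberg adjusted p under 0.05. With TMM scaling, which centres the libraries on the bulk of genes, 25 members were higher, 36 lower and 24 not called in CAR against control-CAR macrophages, and the median member changed by -0.14 (log2). Of all tested genes, 41.9% were higher and 36.8% lower, with a median of 0.06, so calls were frequent everywhere. With library totals in place of TMM, 38 members were higher and 11 lower, with a median of 0.17, where 57% of all genes were higher and 23.5% lower and the median gene changed by 0.37. In limma fits, 39 members were higher and 12 lower in log2(FPKM + 1), where 56.9% and 23.5% of all genes were. In log2(TPM + 1) 61 were higher and 3 lower (68% and 16.4% of all genes), and in quantile-normalised FPKM 50 were higher and 8 lower (35.7% and 45%). The median member changed by 0.13 in FPKM, 0.37 in TPM and 0.25 in quantile-normalised FPKM, and by -0.16 with DESeq2 and -0.06 with upper-quartile scaling.

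A factor per library, such as TMM or library totals, moves most genes by a similar amount. In CAR against control-CAR macrophages it left the distance between the median member and the median gene nearly fixed. That distance was -0.21 on the log2 scale with TMM and -0.20 with library totals. In log2(FPKM + 1) it was -0.16. Quantile normalisation, which forces every library to one distribution and is no common shift, turned it to 0.34. Computing the TMM factors without the members left the median at -0.15. In Hoxb8 macrophages against progenitor cells the distance was -0.24 with TMM and -0.32 with library totals, so it was less fixed there.

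**Figure D2:**
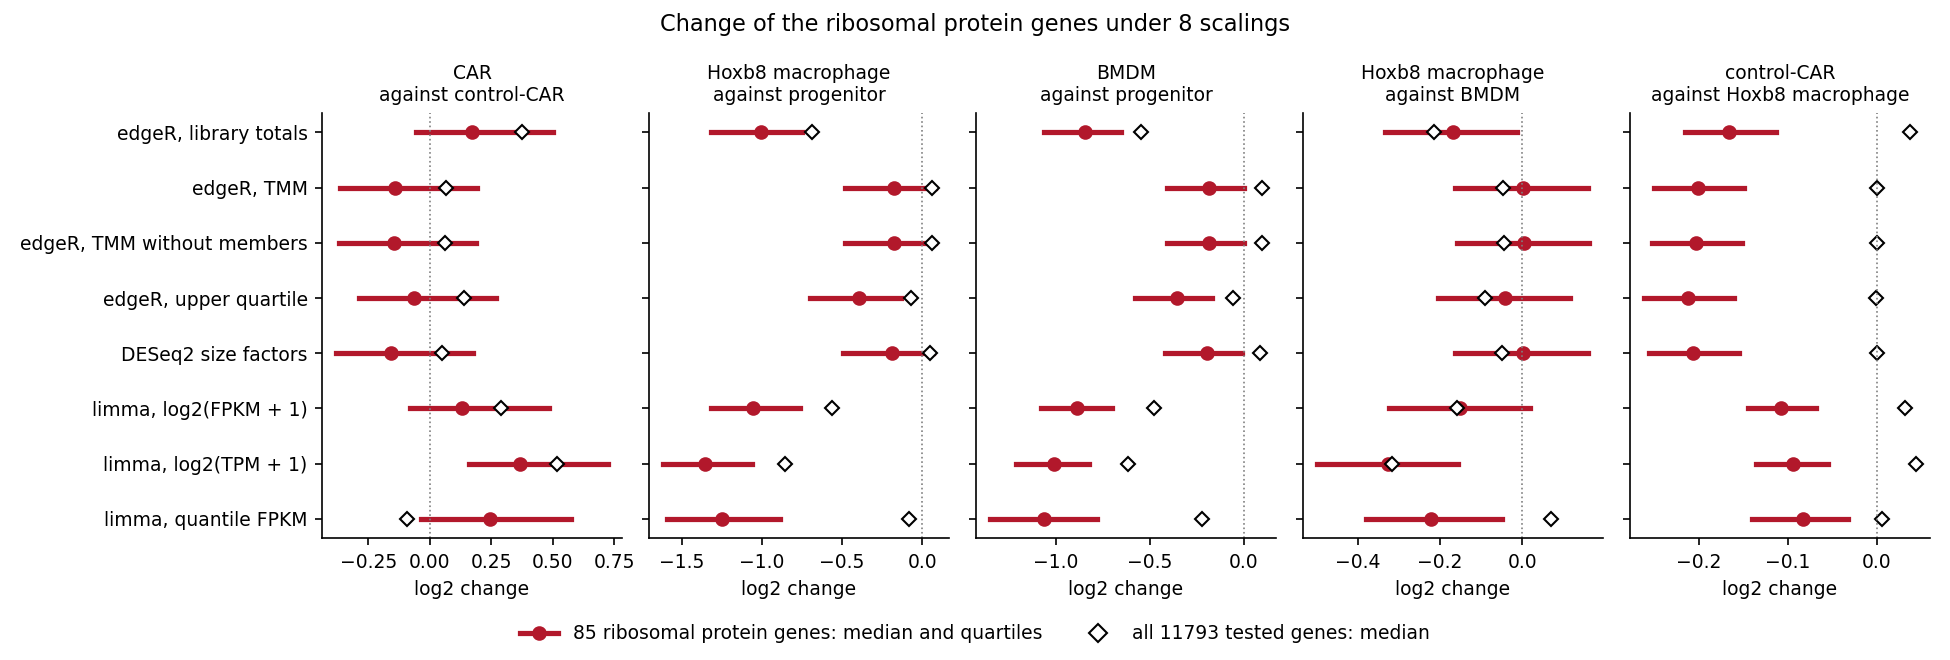
Log2 change of the 85 tested ribosomal protein genes in the 5 comparisons (panels) under 8 scalings (lines): median and quartiles of the members in red, median of all 11793 tested genes as open diamonds; the horizontal axes differ. In CAR against control-CAR the members' median changes sign with the scaling, in Hoxb8 macrophage and BMDM against progenitor it is below 0 under each of them, and it lies below the diamond in those 3 comparisons except under quantile FPKM in CAR against control-CAR.

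Against progenitor cells the direction held under the 8 scalings and the size did not. In Hoxb8 macrophages 15 members were higher and 45 lower than in progenitor cells with TMM (44.7% and 39.6% of all genes), and 0 higher and 83 lower with library totals (26.5% and 61% of all genes). The library-total count of 0 was also 0 at an unadjusted p under 0.05, and DESeq2 called 14 members higher and 44 lower (44% and 39.5% of all genes). The median member fell by 0.18 with TMM and by 1.01 with library totals, while the median gene changed by 0.06 and -0.69. In BMDM 9 members were higher and 44 lower than in progenitor cells with TMM (46.6% and 40.7% of all genes), and 0 higher and 82 lower with library totals (31.9% and 59% of all genes). That 0 also held at an unadjusted p under 0.05, and DESeq2 called 8 higher and 46 lower (46% and 40.5% of all genes). Their median change was -0.18 with TMM and -0.84 with library totals. The TMM factor was 1.46 to 1.47 in the progenitor libraries, against 0.824 to 0.829 in Hoxb8 macrophage and 0.897 to 0.961 in BMDM libraries. Without progenitor replicate 1 or replicate 3, the TMM count of members higher in BMDM was 4.

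A second scale did not use the rest of the library. Each library was scaled to the members' own counts, so that a change says whether a member's part of the ribosomal protein mRNA differed. On this family scale the members' changes are centred near 0 by construction, so the numbers of higher and lower members carry no direction of the family, and the values tell which members departed from the rest. The counts still depend on how the members are summed. In CAR against control-CAR macrophages 30 members were higher and 27 lower with a TMM factor over the members. With the plain sum of their counts 26 were higher and 32 lower, where 4737 and 3998 of 11793 genes were.

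Relative to the family, and apart from Rpl39l described below, Rps2, Rpl8 and Rps19bp1 were raised most in CAR macrophages and Rpl24 and Rpl39 were lowered most among members of high level, with 30 members higher, 27 lower and 28 not called (43.6% and 29.2% of all tested genes). Rps2, a protein of the small subunit near the mRNA entry channel, had 2399, 2376 and 2476 FPKM in CAR, against 880, 941 and 829 FPKM in control-CAR libraries. The groups lay far apart, and Rps2 rose by 1.26 ± 0.09 (log2, SE) in edgeR's quasi-likelihood test (adjusted p = 3.24e-13), and by 1.15 on the TMM scale. Rpl8, a large subunit protein next to the peptidyl transferase centre, had 1110, 1141 and 1198 FPKM in CAR, against 546, 581 and 569 FPKM in control-CAR libraries. It rose by 0.83 ± 0.09. Rps19bp1 had 43.7, 46.3 and 48.5 FPKM in CAR, against 20.7, 20.5 and 19.9 FPKM in control-CAR libraries, a rise of 0.99 ± 0.13. All 3 genes had non-overlapping groups, and all 3 were also called higher with library totals.

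Rpl24, a large subunit protein at the interface with the small subunit, moved the other way. It had 719, 705 and 711 FPKM in CAR, against 989, 1071 and 1018 FPKM in control-CAR libraries. Its change was -0.71 ± 0.09 relative to the family (edgeR's quasi-likelihood test, adjusted p = 4.5e-08) and -0.82 with TMM. Rpl39, a small protein that lines the exit tunnel of the large subunit, had 703, 681 and 705 FPKM in CAR, against 1035, 962 and 939 FPKM in control-CAR libraries. It fell by 0.64 ± 0.10 relative to the family and by 0.74 with TMM. Both genes had their 3 CAR libraries below every control-CAR library. The low-count copy Rpl32l was also called lower, with 53, 52 and 63 estimated counts in CAR and 75, 76 and 79 in control-CAR libraries.

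Proteins with well-described roles did not share a direction in CAR macrophages. Of the stalk proteins, which recruit translation factors to the large subunit, Rplp0 rose by 0.29 ± 0.09 and Rplp1 by 0.35 ± 0.10 relative to the family. The third stalk protein, Rplp2, was called lower, but not without any one of 5 single libraries. Rpl5, which with Rpl11 and 5S rRNA binds and inhibits Mdm2, changed by -0.27 ± 0.09, while Rpl11 was not called. Rpl10, which joins late in assembly, rose by 0.30 ± 0.09, Rpl3 by 0.56 ± 0.09 and Rpl7 by 0.27 ± 0.09. Rpl22 changed by -0.49 ± 0.10, Rps27l by 0.36 ± 0.10 and Rpl7l1 by 0.54 ± 0.13. Rps19, Rps6, Rps27, Rps4x, Rpl36a and Rpl36al were not called.

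Rpl39l, the paralog of Rpl39, was close to absent outside the CAR libraries. It lies at chr16:10170197-10174911 (GRCm38.p6), on another chromosome than Rpl39 (chrX:37082518-37085222). Its estimated counts were 583, 593 and 578 in CAR, against 0, 0 and 1 in control-CAR, 0, 4 and 0 in Hoxb8 macrophage, 0, 1 and 0 in BMDM, and 0, 0 and 0 in progenitor libraries. Scaled by library totals, CAR libraries had 1697 times the Rpl39l counts of control-CAR libraries, with a 95% interval of 304 to 67084, which covers counting error only. Against the progenitor libraries, taken at a floor of 3 counts per library, they had at least 189-fold more. In FPKM, Rpl39l had 66.6 ± 0.848 and Rpl39 had 696 ± 13.5 in CAR libraries (SD, n = 3), so Rpl39l made up 8.73% ± 0.153 of the pair's FPKM. Of the pair's estimated counts it made up 26.3% ± 0.485 (SD, n = 3). In the other 4 groups it made up at most 0.0178% of the pair's FPKM and 0.0418% of its counts on average. Rpl39l was higher and Rpl39 lower in the same 3 libraries.

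**Figure D3:**
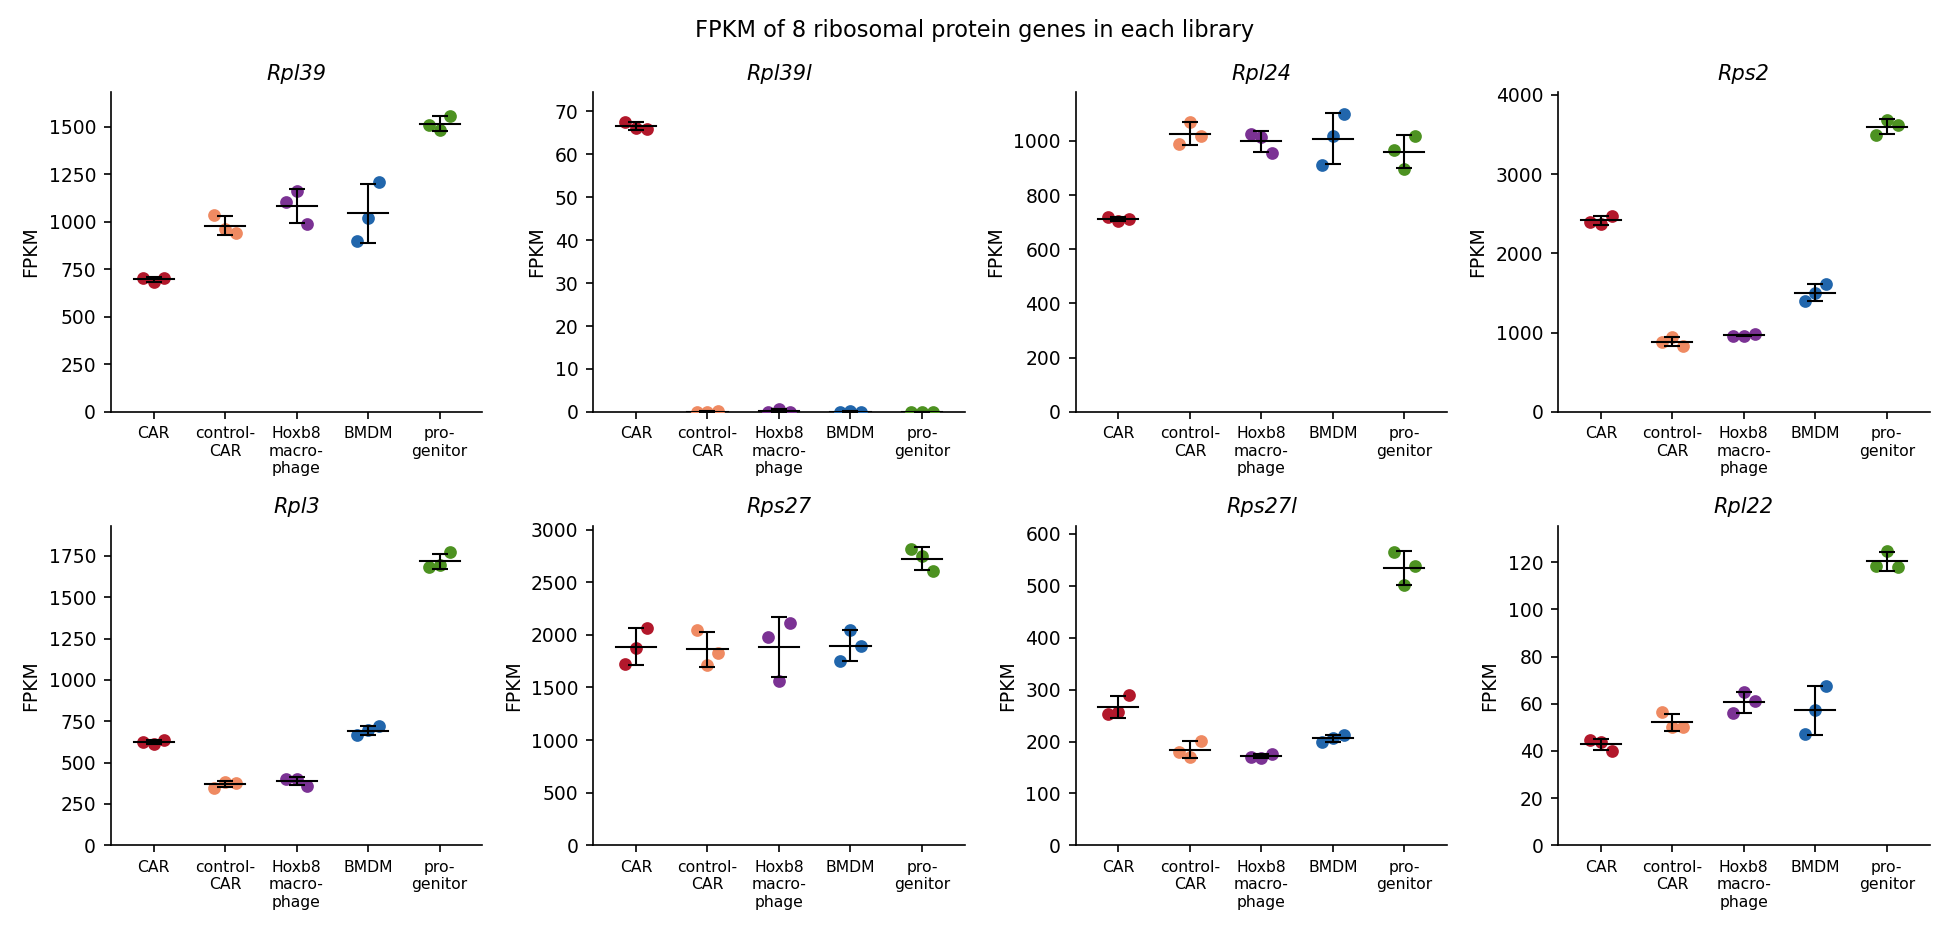
FPKM of 8 ribosomal protein genes in each of the 15 libraries (points), with group mean and SD (black lines); every vertical axis starts at 0 and has its own range. Rpl39l is at 66.0 to 67.6 FPKM in CAR libraries and below 1 FPKM elsewhere, and Rps2 and Rps27l are higher and Rpl39, Rpl24 and Rpl22 lower in CAR than in control-CAR libraries.

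The other paralogs had counts in every group. In FPKM, Rps27l made up 12.4% ± 0.379 of its pair with Rps27 in CAR, against 9.02% ± 0.919 in control-CAR libraries, 8.48% ± 1.11 in Hoxb8 macrophage, 9.85% ± 0.572 in BMDM and 16.4% ± 0.880 in progenitor libraries (SD, n = 3). Rps27l is a p53 target, and its mean share was higher in CAR and progenitor libraries than in the other groups. Rpl22l1 made up 74.6% ± 2.90 of its pair with Rpl22 in CAR, 72.2% ± 1.62 in control-CAR and 75.6% ± 2.46 in progenitor libraries. The CAR mean differed from both by less than the SD of the CAR libraries. By estimated counts Rpl22l1 was the smaller of the pair in every group, with 21.8% in CAR, 19.3% in control-CAR, 18.4% in Hoxb8 macrophage, 19.1% in BMDM and 22.6% in progenitor libraries, so which of the 2 is higher depends on the division by length. Rpl36al held 48.8% ± 1.36 of its pair with Rpl36a in CAR, against 47.4% ± 0.632 in control-CAR libraries, and was lowest in BMDM at 38.3% ± 2.99. Rpl3l, the muscle paralog of Rpl3, stayed at 2, 0 and 1 estimated counts in CAR and 4, 4 and 4 in control-CAR libraries, and reached 29, 47 and 31 in progenitor libraries.

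Members also differed in their part of the family between Hoxb8 macrophages and progenitor cells. On the family scale, 26 members were higher, 27 lower and 32 not called (48.5% and 32.8% of all tested genes). Rpl39l had the largest called rise, 3.82, on a total of 4 estimated counts against 0. Among the other members Rpl24 rose most, by 1.10 ± 0.09. Its FPKM, 1026, 1015 and 954 in Hoxb8 macrophage against 968, 896 and 1017 in progenitor libraries, overlapped between the groups, and its change was 0.08 with library totals, -0.24 in log2(TPM + 1) and -0.19 in quantile-normalised FPKM. Its rise is thus relative to the family and to the TMM scale. Rpl19, a protein of the large subunit surface, rose by 0.74 ± 0.09 and Rpl17, at the tunnel exit, by 0.66 ± 0.08. The stalk proteins rose together, Rplp0 by 0.52 ± 0.09, Rplp1 by 0.54 ± 0.10 and Rplp2 by 0.54 ± 0.10. Rps27 rose by 0.57 ± 0.09 and Rpl39 by 0.60 ± 0.10.

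Rpl3, which helps shape the peptidyl transferase centre, fell furthest among the abundant members in Hoxb8 macrophages. It had 401, 401 and 359 FPKM in Hoxb8 macrophage, against 1683, 1695 and 1770 FPKM in progenitor libraries. The change was -1.12 ± 0.09 relative to the family (edgeR's quasi-likelihood test, adjusted p = 5.16e-12) and -1.32 with TMM. Rps2 fell by 0.86 ± 0.09. Rps6 fell by 1.50 ± 0.14, with 125, 93.7 and 116 estimated counts in Hoxb8 macrophage against 652, 657 and 616 in progenitor libraries, under the limit on its reads given above. Rps27l changed by -0.57 ± 0.10, Rpl7 by -0.39 ± 0.09 and Rpl7l1 by -0.55 ± 0.13. Rpl3l fell by 2.23 ± 0.41 at counts of 5, 5 and 1 in Hoxb8 macrophage libraries, against 29, 47 and 31 in progenitor libraries.

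In BMDM, Rpl24 was the member with the largest called rise against progenitor cells, and Rps6 had the largest fall apart from the low-count Rpl3l. On the family scale 20 members were higher, 20 lower and 45 not called (50.9% and 33.4% of all tested genes). Rpl24 rose by 0.97 ± 0.09, with 910, 1016 and 1100 FPKM in BMDM against 968, 896 and 1017 FPKM in progenitor libraries. These overlapped, and its change was 0.11 with library totals, -0.054 in log2(TPM + 1) and -0.15 in quantile-normalised FPKM. Rplp1 rose by 0.58 ± 0.10, Rps10, near the mRNA entry of the small subunit, by 0.52 ± 0.09, Rpl19 by 0.47 ± 0.09 and Rps27 by 0.46 ± 0.09. Rplp0 rose by 0.40 ± 0.09 and Rpl39 by 0.40 ± 0.10. Rps6 fell by 1.03 ± 0.13, Rpl36al by 0.55 ± 0.09, Rpl22l1 by 0.51 ± 0.11, Rpl3 by 0.43 ± 0.09, Rps27l by 0.44 ± 0.10 and Rpl5 by 0.35 ± 0.09. Rpl3l fell by 2.93 ± 0.43 at counts of 2, 3 and 3 in BMDM libraries. The comparisons with progenitor cells share the progenitor libraries and are not independent of each other.

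Between Hoxb8 macrophages and BMDM, Rpl3, Rps9 and Rps2 were lower and Rpl36al and Rplp2 higher in Hoxb8 macrophages. On the TMM scale 13 members were higher and 21 lower (32% and 38.3% of all genes), and the median member changed by 0.0016 (log2), against -0.05 for the median gene. With library totals 1 member was higher and 40 lower (22.3% and 49.7%), and the median member changed by -0.17. On the family scale 12 were higher and 15 lower (27.1% and 34.4%). Scaling to the plain sum of the members' counts gave 17 higher and 12 lower (3576 and 3892 of 11793 genes). Fitting only the 2 groups gave 3 higher and 6 lower (2861 and 3487 of 11793 genes). Rpl3 had 401, 401 and 359 FPKM in Hoxb8 macrophage, against 664, 697 and 720 FPKM in BMDM libraries, and fell by 0.69 ± 0.09 relative to the family. Rps9, a small subunit protein at the decoding site side of the mRNA channel, had 818, 815 and 815 FPKM in Hoxb8 macrophage, against 1217, 1353 and 1399 FPKM in BMDM libraries, and fell by 0.55 ± 0.09. Rps2 fell by 0.48 ± 0.09. Rpl36al rose by 0.63 ± 0.09, with 430, 449 and 446 FPKM in Hoxb8 macrophage against 274, 325 and 348 FPKM in BMDM libraries, and Rplp2 rose by 0.38 ± 0.10. The groups did not overlap for Rpl3, Rps9 and Rpl36al.

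These counts rested on single BMDM libraries. Without BMDM replicate 3, 30 members were higher with TMM, and 20 were higher and 23 lower relative to the family. Without BMDM replicate 1, 8 were higher with TMM and 7 relative to the family, and without Hoxb8 macrophage replicate 2, 8 were higher with TMM. Rps6 (-0.47), Rpl38 (0.33) and Rps27a (0.30) were called relative to the family, but not without BMDM replicate 1, where their changes were -0.34, 0.21 and 0.20, and Rps6 (-0.29) and Rpl38 (0.27) not without Hoxb8 macrophage replicate 2. The summed FPKM of 7 neutrophil markers was 4778, 11221 and 10025 in BMDM replicates 1 to 3, and 1235 to 1481 in Hoxb8 macrophage libraries. The summed FPKM of 6 lymphoid markers was 16.8 to 33.4 in BMDM and 0.24 to 0.27 in Hoxb8 macrophage libraries. The part of these other cells in the differences was not tested.

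Control-CAR and Hoxb8 macrophages differed little, with most members slightly lower in control-CAR. With TMM, 0 members were called higher and 1 lower (0.721% and 1.9% of all genes), and DESeq2 called 0 higher and 11 lower (0.992% and 2.65% of all genes). With library totals 0 were called in either direction (2.36% and 1.63% of all genes), and at an unadjusted p under 0.05 there 1 was higher and 36 lower. The called member was Rpl13a, a large subunit protein, with 898, 913 and 857 FPKM in control-CAR and 968, 972 and 1089 FPKM in Hoxb8 macrophage libraries, and a change of -0.24 ± 0.06 in edgeR's quasi-likelihood test (adjusted p = 0.0330). That call was lost with library totals (-0.20) and without any one of the 6 libraries except control-CAR replicate 2. At an unadjusted p under 0.05, 58 of 85 members were lower and 1 higher, where 9.75% of all genes were lower and 8.29% higher. The median member changed by -0.20 with TMM, against 0.00 for the median gene, and 2 of 85 members had a change above 0. The size depended on the unit, with a median of -0.11 and 7 members above 0 in FPKM, -0.09 and 10 in TPM, and -0.08 and 15 in quantile-normalised FPKM. Relative to the family 1 member was called higher, Rpl7l1 (0.41 ± 0.13), and 0 lower (8.3% and 0.458% of all genes), and at an unadjusted p under 0.05 there were 1 higher and 1 lower. Rpl7l1 was not called without control-CAR replicate 1 (0.39) or replicate 3 (0.35), or without Hoxb8 macrophage replicate 1 (0.42) or replicate 2 (0.31). Without control-CAR replicate 2 the TMM count of lower members was 7, and it was 0 without each of the other 5 libraries.

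**Figure D4:**
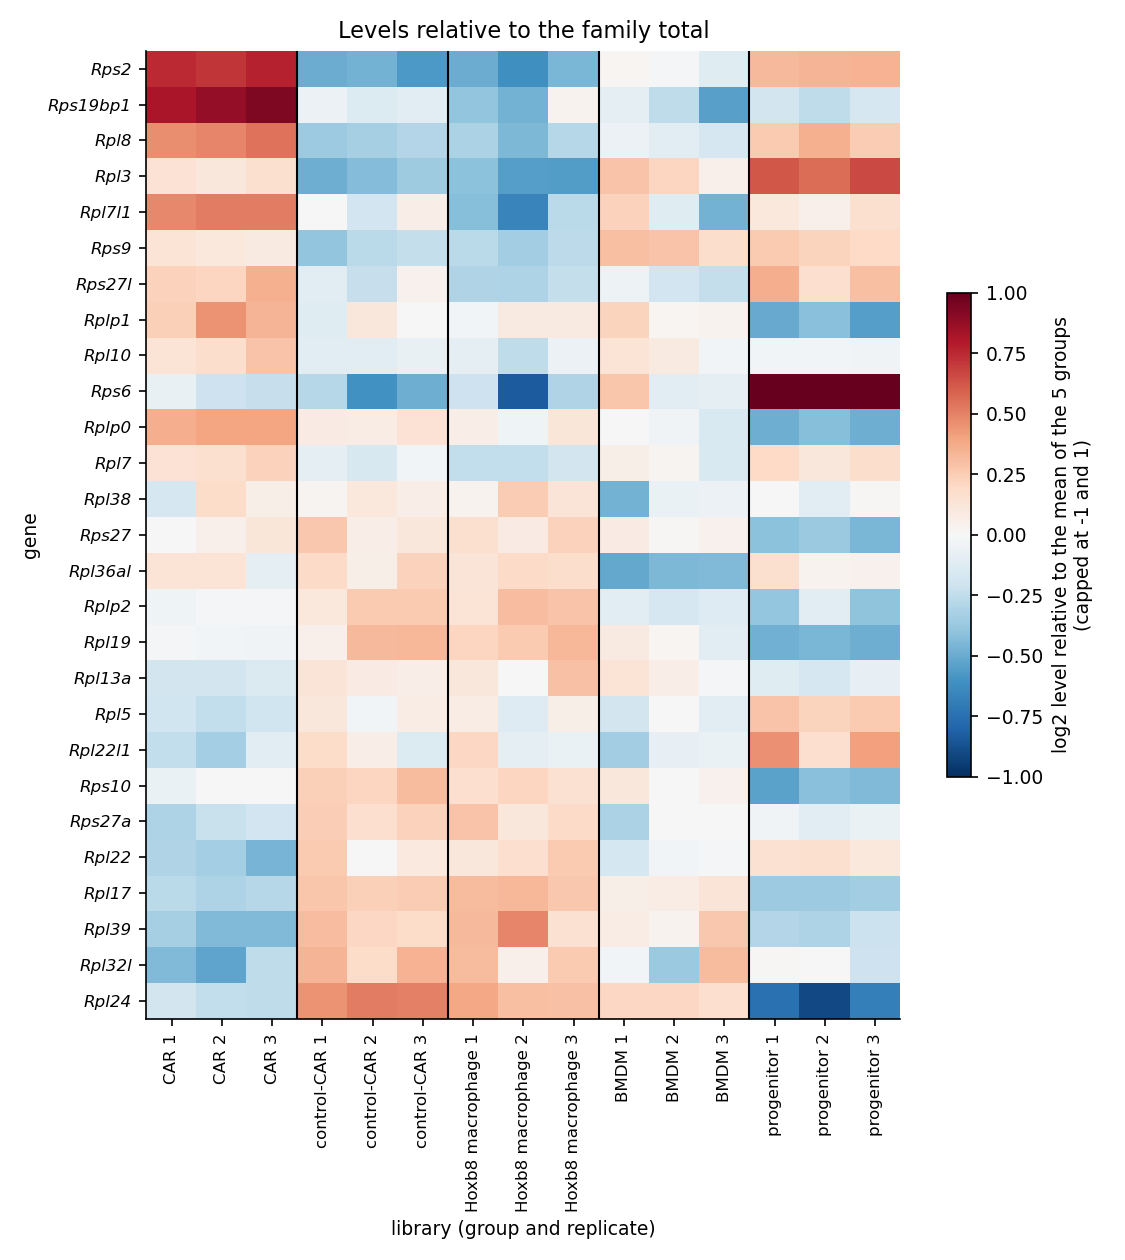
Level of 27 named ribosomal protein genes in each of the 15 libraries relative to the family total, as log2 difference from the mean of the 5 groups (red higher, blue lower, colours capped at -1 and 1), with genes ordered by CAR minus control-CAR. The control-CAR and Hoxb8 macrophage columns have similar colours in most rows, Rps2 is highest in CAR, Rps6 and Rpl3 are highest and Rpl24 is lowest in progenitor libraries.

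Members tended to change with opposite signs in CAR against control-CAR macrophages and in Hoxb8 macrophages against progenitor cells. They did so with Hoxb8 macrophages against BMDM as well. Other tested genes tended the same way, so the tendency was not particular to the members. Rpl39l, close to absent outside the CAR libraries, and the low-count Rpl3l were left out here. Over the other 83 members, family-scale changes were compared between CAR against control-CAR and Hoxb8 macrophages against progenitor cells, which share no library. The Pearson correlation was -0.63 and the Spearman correlation -0.64. Of these 83 members, 63 had opposite signs, 34 were called in both with opposite signs and 5 were called in both with the same sign. Over the other 11708 tested genes the values were -0.23 and -0.41. Of those genes, 7911 had opposite signs, 5329 were called in both with opposite signs and 1778 with the same sign. With BMDM against progenitor cells the members' values were -0.41 and -0.40. There 53 of the 83 members had opposite signs, with 19 called in opposite and 7 in the same direction. The other 11708 genes there had values of 0.17 and -0.17. Of them 7028 had opposite signs, with 4721 called in opposite and 2627 in the same direction. With Hoxb8 macrophages against BMDM, which holds no progenitor library, the members' values were -0.64 and -0.73. There 63 of the 83 members had opposite signs, with 23 called in opposite and 0 in the same direction. The other 11708 genes had values of -0.63 and -0.54. Of them 8130 had opposite signs, with 4563 called in opposite and 1065 in the same direction. Genes are not independent replicates, so these are descriptions. Over all 85 members, with Rpl39l and Rpl3l, the first pair of comparisons had a Pearson value of 0.54 and a Spearman value of -0.53. The profiles of the members in control-CAR and Hoxb8 macrophages differed in 1 called member. The pairs of comparisons with Hoxb8 macrophages thus set nearly the same profile on opposite sides of the difference.

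**Figure D5:**
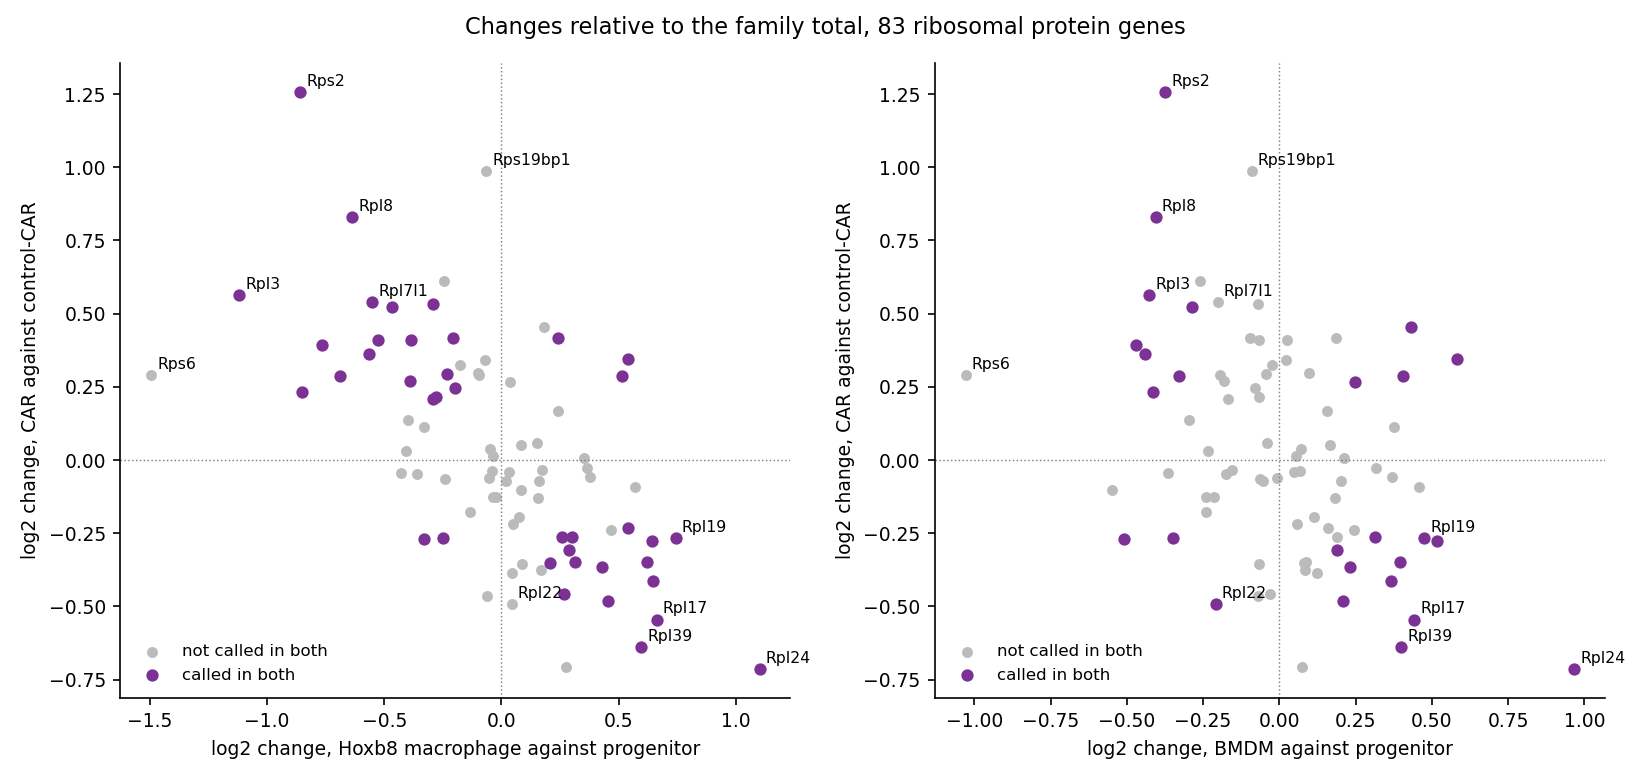
Log2 change relative to the family total of 83 ribosomal protein genes, CAR against control-CAR (vertical) against Hoxb8 macrophage versus progenitor (left, horizontal) and BMDM versus progenitor (right, horizontal); purple genes were called in both comparisons, grey ones were not. Rps2, Rpl8 and Rpl3 are at the upper left and Rpl24, Rpl39 and Rpl17 at the lower right of both panels.

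Ribosomal proteins outside the symbol rule also differed in direction. Fau, a fusion of a ubiquitin-like protein and ribosomal protein eS30, had 1651 ± 8.10 FPKM in CAR and 2214 ± 44.8 FPKM in control-CAR libraries (SD, n = 3), and fell by 0.67 with TMM. With TMM it rose by 1.17 in Hoxb8 macrophages and by 0.79 in BMDM against progenitor cells. With library totals Fau was not called higher in BMDM, where it had 2121 ± 243 FPKM, against 2004 ± 68.0 FPKM in progenitor libraries (SD, n = 3). Rack1, a small subunit scaffold for kinases, had 657 ± 17.2 FPKM in CAR and 447 ± 30.8 FPKM in control-CAR libraries (SD, n = 3) and rose by 0.25, and it fell by 0.76 in Hoxb8 macrophages against progenitor cells. Rpsa was not called in CAR against control-CAR macrophages and fell by 0.43 in Hoxb8 macrophages against progenitor cells.

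Genes that build ribosomes had larger median changes than the members. The lists of such genes were drawn up with earlier results of these data known. Their counts stand beside the shares of all tested genes given above, which with TMM were 41.9% higher and 36.8% lower in CAR against control-CAR macrophages and 44.7% higher and 39.6% lower in Hoxb8 macrophages against progenitor cells, and with library totals 57% and 23.5%, and 26.5% and 61%. Of 43 ribosome biogenesis genes, 41 were higher and 1 lower in CAR than in control-CAR macrophages with TMM (median 1.49), and all 43 were lower in Hoxb8 macrophages (median -2.46) and in BMDM (median -2.25) than in progenitor cells. The same counts with library totals were 42 higher and 1 lower in CAR, and 43 lower in both comparisons with progenitor cells. Dkc1, the pseudouridine synthase of rRNA, rose by 4.02 in CAR macrophages and fell by 5.91 in Hoxb8 macrophages, and Ddx10, a nucleolar helicase, was the 1 gene lower in CAR macrophages, by 0.53. Npm1, a nucleolar chaperone, rose by 1.89 in CAR macrophages. Of 16 tested genes of RNA polymerase I and its factors, 12 were higher and 4 lower in CAR macrophages, with Polr1b, its second largest subunit, up by 2.07.

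Most initiation factors were called in both comparisons. Of 31 initiation factors, 20 were higher and 5 lower in CAR than in control-CAR macrophages with TMM (41.9% and 36.8% of all genes). In Hoxb8 macrophages against progenitor cells 6 were higher and 25 lower (44.7% and 39.6% of all genes). With library totals 26 were higher and 2 lower in CAR macrophages (57% and 23.5% of all genes). In Hoxb8 macrophages 1 was higher and 29 lower with library totals (26.5% and 61% of all genes). Eif3l, a subunit of initiation factor 3, rose by 1.04 in CAR macrophages, and Eif4ebp1, the repressor of cap-dependent initiation that mTORC1 phosphorylates, fell by 1.09 there and rose by 1.88 in Hoxb8 macrophages against progenitor cells. Of 13 elongation factors and other TOP mRNA genes, 8 were higher and 3 lower in CAR macrophages with TMM, and 12 were higher and 0 lower with library totals. Of 13 genes of TOP mRNA and mTORC1 control, 5 were higher and 2 lower with TMM, where 41.9% and 36.8% of all genes were. Among them were Larp4 (0.48) and the mTOR inhibitor Deptor (-1.66). Deptor was near the floor in both groups, with 0.133 FPKM in CAR and 0.34 FPKM in control-CAR libraries. With library totals 10 of the 13 were higher and 1 lower. In Hoxb8 macrophages against progenitor cells 4 of these 13 were higher and 8 lower.

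Cell division genes moved with the same comparisons. All 12 division genes were higher in CAR than in control-CAR macrophages with TMM (41.9% of all genes). All 12 were lower in Hoxb8 macrophages and in BMDM than in progenitor cells (39.6% and 40.7% of all genes). Their summed FPKM was 599 to 609 in CAR, 138 to 157 in control-CAR, 145 to 179 in Hoxb8 macrophage, 302 to 327 in BMDM and 2064 to 2077 in progenitor libraries. In CAR against control-CAR macrophages, 7 of 7 mast cell and basophil markers, 4 of 8 progenitor markers and 4 of 5 tested fibroblast markers were also higher, and 7 of 7 neutrophil markers were lower. The fibroblast markers summed to 46.0 to 47.3 FPKM in CAR and 0.88 to 1.32 FPKM in control-CAR libraries, where Sparc was listed at 0. The progenitor markers summed to 161 to 175 FPKM in CAR and 13.4 to 15.5 FPKM in control-CAR libraries. Most of the CAR sum was Ctsg, with 113 FPKM in CAR and 2.79 FPKM in control-CAR libraries, while Kit had 4.71 and 4.02 FPKM. The neutrophil markers summed to 197 to 234 FPKM in CAR and 1712 to 2105 FPKM in control-CAR libraries. Lymphoid markers summed to at most 0.29 FPKM in both groups. Their part in the changes of the ribosomal protein genes was not tested.

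Transcript length touched the FPKM of the shortest members. Dividing counts by FPKM gives the effective length the authors' values imply, and for Rpl38 it was 44.1 bases in CAR, 38.4 in control-CAR, 44.0 in Hoxb8 macrophage, 45.0 in BMDM and 42.9 in progenitor libraries. The highest of these was 1.17 times the lowest, so the FPKM of Rpl38 differs between groups by up to that factor at equal counts per library. For Rps27 the factor was 1.15. Changes fitted to counts were not divided by effective length, so at equal FPKM they can carry such a factor between groups. The FPKM and TPM levels, the changes in FPKM, TPM and quantile-normalised FPKM, and the paralog shares in FPKM include that division. Which unit lies closer to the transcript level was not tested. Across 83 members the family-scale change had a Pearson correlation of 0.07 with effective length in CAR against control-CAR, of -0.26 in Hoxb8 macrophages and -0.20 in BMDM against progenitor cells, of -0.22 in Hoxb8 macrophages against BMDM and of 0.35 in control-CAR against Hoxb8 macrophages, all as descriptions over genes of the same libraries.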

How the data were processed

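The table gives, per the file headers, FPKM, TPM and a read count per gene and library, and the counts are estimated counts that the authors deposited, of which 94.4% to 96.0% per library are whole numbers. Per the submitters' processing notes, HISAT2, Bowtie2, RSEM 1.3.1, DESeq2 1.4.5 and GRCm38.p6 were used. What each tool did, which annotation was used and whether counting was stranded is not given in the sources used here. A total of 25 gene symbols had become dates and were restored, and 15 columns of averages were not used.

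Counts were rounded and fitted over all 15 libraries with edgeR 4.0.16 (TMM, quasi-likelihood test, Benjamini-Hochberg over 11793 genes) in R 4.3.3. For the family scale, library size was the members' count sum times a TMM factor over the members. Alternatives used limma 3.58.1 and DESeq2 1.42.0, and figures matplotlib 3.10.9. Scripts were tested on simulated data. Named genes were the 4 largest called rises and falls per comparison and scale, a fixed set of 24 members (22 in the table), and at most the largest called rise and fall of each list. The members and lists were chosen with earlier results of these data known. Members' reads may be split with near-identical copies. FPKM and TPM were compared on the log2(value + 1) scale, which understates changes of low genes. Intervals and floors cover counting error only.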

Additional observations from a re-analysis of the deposited data

How the results depend on the processing

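Members higher in CAR than in control-CAR macrophages numbered 38 with library totals, 39 in log2(FPKM + 1), 61 in log2(TPM + 1), 50 in quantile-normalised FPKM and 39 in log2(FPKM + 0.1), and members lower 11, 12, 3, 8 and 12. Over all 11793 tested genes, 6722, 6713, 8018, 4212 and 6732 were higher and 2770, 2770, 1933, 5306 and 2766 lower. In the same 5 settings and order, members higher in Hoxb8 macrophages than in progenitor cells numbered 0, 0, 0, 0 and 0 (7 with upper quartile), and lower 83, 83, 84, 81 and 83. Tested genes higher there numbered 3123, 3045, 2544, 4493 and 3120 (4603 with upper quartile), and lower 7195, 7173, 7848, 5410 and 7182. Members higher in BMDM than in progenitor cells numbered 0, 0, 0, 0 and 0 (1 with upper quartile, 5 without the filter, 5 with the 2 groups alone), and lower 82, 82, 82, 83 and 82. Among all tested genes 3762, 3694, 3454, 4309 and 3739 were higher and 6959, 6956, 7271, 6135 and 6940 lower. Genes higher numbered 4963 with upper quartile, 6689 of 17009 without the filter and 5285 with the 2 groups alone. Members higher in Hoxb8 macrophages than in BMDM numbered 1, 2, 1, 3 and 2 (8 with the 2 groups alone), and lower 40, 38, 58, 49 and 36. All tested genes gave 2628, 2617, 1815, 4869 and 2617 higher (3575 with the 2 groups alone) and 5865, 5758, 7172, 3609 and 5811 lower. Members lower in control-CAR than in Hoxb8 macrophages numbered 0 in those 5 settings and with the 2 groups alone, and 11 with DESeq2. Genes lower there numbered 192, 157, 147, 166 and 137, with 85 for the 2 groups alone and 313 with DESeq2. Relative to the family, the 2 groups alone gave 3 higher and 6 lower members in Hoxb8 macrophages against BMDM, where 2861 and 3487 of 11793 genes were. The cause of these moves was not tested.

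Leaving out 1 library gave, for members higher and lower, 20 to 26 and 29 to 38 in CAR against control-CAR, 11 to 17 and 37 to 46 in Hoxb8 macrophages against progenitor cells, 4 to 13 and 36 to 55 in BMDM against progenitor cells, 8 to 30 and 15 to 25 in Hoxb8 macrophages against BMDM, and 0 to 0 and 0 to 7 in control-CAR against Hoxb8 macrophages. Relative to the family the ranges were 26 to 28 and 22 to 26, 22 to 26 and 22 to 25, 15 to 22 and 15 to 21, 7 to 20 and 10 to 23, and 0 to 1 and 0 to 0. The shares over all genes in these fits are not given here, so the ranges show only how far the member counts moved. The share of counts ranged over 2.79% to 2.80% in CAR, 2.23% to 2.32% in control-CAR, 2.46% to 2.59% in Hoxb8 macrophage, 2.73% to 3.07% in BMDM and 5.23% to 5.38% in progenitor libraries. As shares of FPKM these were 11.5%, 8.45%, 9.06%, 11.3% and 22.3%, and without the 10 most abundant other genes 3.07%, 2.58%, 2.90%, 3.27% and 5.51%.

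Rpl24 changed sign in TPM (-0.24) and quantile-normalised FPKM (-0.19) in Hoxb8 macrophages against progenitor cells, and in TPM (-0.054) and quantile-normalised FPKM (-0.15) in BMDM against progenitor cells. Same-numbered libraries did not deviate together, with correlations of -0.144 to 0.031, so the numbers were not taken as pairs. With the replicate number as a block, 25 members were higher and 36 lower in CAR macrophages, 15 and 45 in Hoxb8 macrophages and 9 and 44 in BMDM against progenitor cells, 14 and 22 in Hoxb8 macrophages against BMDM, and 0 and 1 in control-CAR against Hoxb8 macrophages. In the same order 4908 and 4296, 5240 and 4649, 5479 and 4767, 3713 and 4446, and 58 and 188 of 11793 genes were. Members with counts of a few reads, such as Rpl3l, are limited by depth.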
